A study of Homo sapiens with 18 samples.

Results

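Small nucleolar RNA host genes are transcribed as long RNAs whose introns carry small nucleolar RNAs (snoRNAs). The 32 genes described here were all genes with a symbol made of SNHG and a number, plus GAS5, ZFAS1, DANCR and EPB41L4A-AS1, out of 60623 genes in the deposited table. They were chosen by name and not by a rule on their measured values, though earlier results of these data were known. Of these genes, 25 had at least 10 counts in at least 3 libraries and were tested, among 16570 genes tested in all. RNA sequencing was done on HEK-293E cells, an established human embryonic kidney line, in 6 groups of 3 libraries. The cells were starved, fed for 1 h or fed for 4 h, each with Torin1, and the same 3 states were measured without it. All cells were first kept overnight in medium with little serum, and feeding was a return to full growth medium. Torin1 is a small-molecule inhibitor of the kinase mTOR whose dose and duration the labels do not give. The labels also do not say whether the 3 libraries of a group came from separate cultures. The p values below measure only the spread between libraries, which may be technical. In RNA from whole cultures, fewer cells with a transcript and less of the transcript per cell cannot be told apart.

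Library totals were between 10510689 and 13690035 counts, and levels are given as CPM, counts relative to the scaled size of the library. A count of 0 allows up to 0.219 to 0.285 CPM, at a limit of 3 counts and for counting error alone. Of the 7 untested genes, SNHG18 and SNHG27 had 0 counts in all libraries, and SNHG14, SNHG22, SNHG25, SNHG28 and SNHG31 had at most 9 counts in a library. Of the 25 tested genes, 23 had at least 10 counts in all 18 libraries. All 8 genes of a HEK293 marker list were tested, and their summed level was 1457 to 1784 CPM in libraries with Torin1 and 1042 to 1267 CPM in libraries without it. Summed markers of fibroblasts were at 8.49 to 44.2 CPM, those of immune cells at 1.58 to 5.70 CPM and those of endothelial cells at 0.480 to 2.82 CPM. The fibroblast sum varied between libraries of a group, from 10.85 to 44.2 CPM in starved cells without Torin1. In that group COL3A1 had 3.88 ± 5.82 CPM and COL1A2 2.51 ± 3.81 CPM (SD, n = 3 each), each SD above its mean. The summed HEK293 markers were thus higher in every library with Torin1. VIM made up most of that sum, at 1140 CPM with Torin1 and 632 CPM without it in starved cells and 1298 CPM with Torin1 and 566 CPM without it in 4 h fed cells (means of 3). Of the 8 markers, 5 were called higher and 2 lower with Torin1 in each feeding state, and NEFM and LIN28B were the lower ones in starved and 4 h fed cells. Their part in the results below was not tested. The snoRNAs themselves were largely unseen. Of 552 snoRNA genes found by symbol, 537 had 0 counts in all libraries and 4 were tested, so the values below describe the host transcripts.

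As background, a snoRNA is cut out of the host's intron and bound by a set of core proteins, and then guides chemical changes on ribosomal RNA. Box C/D snoRNAs guide methylation of the ribose, box H/ACA snoRNAs guide pseudouridylation, and their relatives in Cajal bodies guide both on spliceosomal RNAs. The spliced exons that remain often have short open reading frames. In human cells the spliced RNAs of several host genes, GAS5 among them, are known to be degraded by nonsense-mediated decay (NMD), which depends on translation. Many host genes, like the genes of ribosomal proteins, start transcription at a C within a run of pyrimidines, the 5′ terminal oligopyrimidine (TOP) motif, and translation of TOP messenger RNAs is known to depend on mTOR. GAS5 was named for its accumulation in growth-arrested cells.

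By the RefSeq annotation, 31 of the 32 genes span at least 1 snoRNA gene. GAS5 spans 11, among them SNORD44 and SNORD47, SNHG1 spans 9, SNHG17 spans 5, SNHG12 spans 4, and ZFAS1, SNHG16 and SNHG29 span 3 each. Most tested hosts fall into a class of 11 that span mainly box C/D genes (GAS5, ZFAS1, SNHG1, SNHG5, SNHG6, SNHG16, SNHG19, SNHG26, SNHG29, SNHG30 and SNHG32) or a class of 11 that span mainly box H/ACA genes (DANCR, EPB41L4A-AS1, SNHG3, SNHG4, SNHG7, SNHG8, SNHG9, SNHG11, SNHG12, SNHG15 and SNHG17). SNHG10, SNHG20 and SNHG21 each span 1 gene of a Cajal body RNA.

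The 5′ ends of host transcripts in the GENCODE 29 annotation are shown because the hosts differ in whether a pyrimidine run is present there. The first 24 bases are given, and capitals mark a C at the start followed by at least 4 further pyrimidines.
GAS5 transcript ENST00000431268: CTTTTCgaggtaggagtcgactcc
ZFAS1 transcript ENST00000428008: CTTTCgcgtctgcggtgcccggag
SNHG16 transcript ENST00000586942: CTTTTCgaggtcggccgcgtggct
SNHG19 transcript ENST00000563192: CTTTTCggggtcgagtccgagggg
SNHG29 transcript ENST00000584141: CTTTTCattcccgttgttatggag
SNHG8 transcript ENST00000602819: CTTTCacattcgggaagcgtcggg
SNHG12 transcript ENST00000461832: CCTTTCTCCCCgccgcattcccgg
DANCR transcript ENST00000411630: agagtcttcccgggattggctgcg
SNHG15 transcript ENST00000578968: tccactgagttgacacgcagacgc
SNHG17 transcript ENST00000456953: gcctcagtccttcgccgtccctcg
SNHG32 transcript ENST00000375638: ttttagttctttttgcgaagtggg

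GAS5, ZFAS1, SNHG8, SNHG16, SNHG19 and SNHG29 thus share the letters CTTTC or CTTTTC at an annotated start, whereas DANCR, SNHG15, SNHG17 and SNHG32 had no annotated transcript with a count that starts this way. Of the 25 tested hosts, 12 had at least 1 such transcript (48%), against 2228 of 16374 tested genes with annotated transcripts (13.6%). A gene with more annotated transcripts meets this more easily. The median number of transcripts with a count was 6 for the hosts and 5 for all these genes. The transcript shown held 100% of the isoform counts of SNHG19, 51.1% of those of SNHG8 and 42.5% of those of SNHG12, but 4.7% of those of GAS5 and 0.665% of those of SNHG29. An annotated start is thus not a measure of where these RNAs began. The promoter window of SNHG12, the only host called after 1 h of feeding, is given as RefSeq has it in GRCh38.p14, chr1:28581824-28582123 on the minus strand, with the pyrimidine run of the start in capitals.
SNHG12 promoter: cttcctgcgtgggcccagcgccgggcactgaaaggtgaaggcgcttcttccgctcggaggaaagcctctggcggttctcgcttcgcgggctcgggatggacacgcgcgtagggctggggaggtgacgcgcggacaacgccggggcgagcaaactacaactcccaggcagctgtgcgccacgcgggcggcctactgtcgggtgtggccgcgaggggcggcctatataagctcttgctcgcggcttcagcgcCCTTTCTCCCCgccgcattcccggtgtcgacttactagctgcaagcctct

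A search of 35116 such windows for CACGTG on both strands found it in 7.26% of all windows and in 2 of 28 host windows, those of SNHG7 and SNHG30. TGACGTCA was in 1.85% of all windows and TGATGCAA in 0.866%, and both were in 0 of the 28 host windows. These are letters in a window and say nothing of binding.

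**Figure D1:**
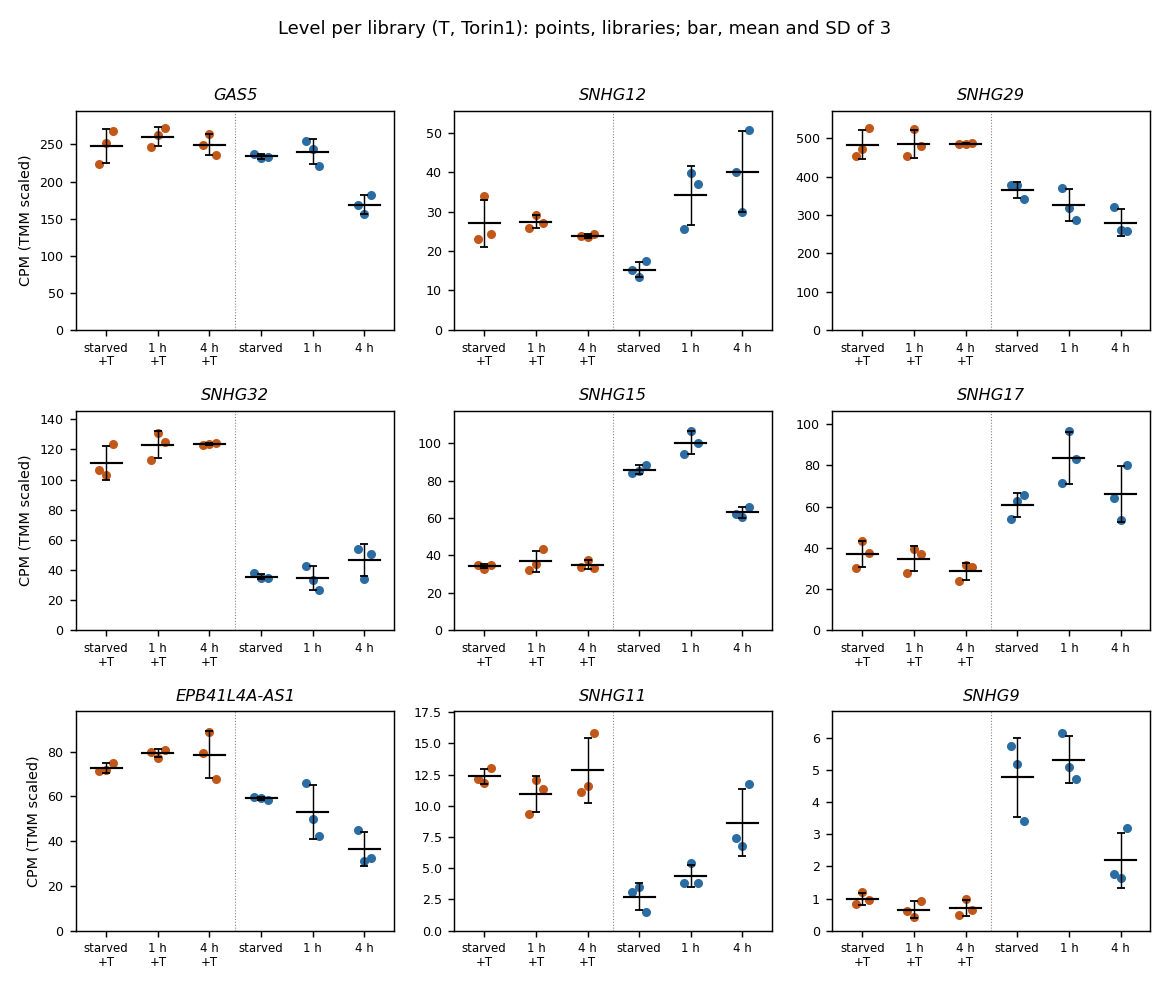
Level of 9 host genes in each library, in CPM scaled by trimmed means (vertical axis, from 0), for the 3 groups with Torin1 (orange) and the 3 groups without it (blue). Points are libraries, and bars are the mean and SD of 3. GAS5 is lowest at 4 h without Torin1 (156 to 182 CPM), SNHG32 is above 100 CPM in every library with Torin1, and SNHG12 is at 23.4 to 24.4 CPM at 4 h with Torin1, below the 29.9 to 50.6 CPM at 4 h without it.

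Across the series, host transcripts made up 0.243% of counts in starved, 0.241% in 1 h fed and 0.240% in 4 h fed cells with Torin1, against 0.201% in starved, 0.201% in 1 h fed and 0.168% in 4 h fed cells without it (means of 3 libraries). These shares are of library totals before scaling, and hosts with many counts weigh most in them. The scaling factors were 1.017 to 1.073 with Torin1 and 0.9311 to 0.9787 without it. After scaling, the hosts' median log2 fold changes with Torin1 were 0.09 in starved, 0.12 in 1 h fed and 0.29 in 4 h fed cells. Those of all genes were 0.09, 0.06 and 0.03 in the same order. Levels of different genes were compared as TPM, a level per transcript length computed from isoform counts, for the 12 tested hosts whose annotated isoforms held at least 90% of the gene count. GAS5 was the highest of these, at 707.5 ± 73.2 TPM in starved cells with Torin1 and 553 ± 26.8 TPM in starved cells without it (SD, n = 3 each). The order of 4 further hosts among the 12 differed between the groups. In starved cells with Torin1 SNHG32 had 237 ± 22.4 TPM, DANCR 168 ± 11.0 TPM, SNHG6 146 ± 14.8 TPM and ZFAS1 132 ± 10.8 TPM. In starved cells without Torin1 DANCR had 245 ± 6.45 TPM, ZFAS1 133 ± 21.2 TPM, SNHG6 127 ± 11.7 TPM and SNHG32 72.2 ± 3.85 TPM. In both groups SNHG6 and ZFAS1 differed by less than the larger of their SDs.

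After 1 h of feeding without Torin1, 1 of the 25 hosts had changed: SNHG12 (ENSG00000197989), which carries 3 box H/ACA snoRNA genes and SNORD99, rose. Its level was 15.2, 13.4 and 17.4 CPM in starved cells, 25.7, 39.8 and 37.1 CPM after 1 h and 40.1, 29.9 and 50.6 CPM after 4 h. The 1 h and starved libraries did not overlap (log2 1.16 ± 0.18, adjusted p = 0.00216). Here and below, a log2 fold change is given with its SE and with the adjusted p of edgeR's quasi-likelihood test (Benjamini-Hochberg, over all genes tested). The call threshold was an adjusted p of 0.05, passed at 1 h by 0.64% of all genes (0.477% higher, 0.163% lower). The remaining 24 hosts did not pass, and 6 of the 25, SNHG12 among them, had an unadjusted p under 0.05. In 8 of the 25 hosts the 1 h and starved libraries did not overlap, against 12.2% of all genes. The median of all 25 was −0.05 against 0.01 over all genes (log2). The call of SNHG12 was kept when any 1 of the 6 libraries was left out.

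After 4 h of feeding without Torin1, 13 of the 25 hosts fell and 5 rose relative to starved cells. The called share was 41.9% over all genes, with 19% lower and 22.9% higher, and the median was −0.38 for the hosts against −0.00 for all genes (log2). The hosts that fell were GAS5, ZFAS1, SNHG1, SNHG29 and SNHG30 of the box C/D class, DANCR, EPB41L4A-AS1, SNHG3, SNHG7, SNHG8, SNHG9 and SNHG15 of the box H/ACA class, and SNHG10. Those that rose were SNHG26 and SNHG32 (box C/D), SNHG11 and SNHG12 (box H/ACA) and SNHG20. SNHG4, SNHG5, SNHG6, SNHG16, SNHG17, SNHG19 and SNHG21 did not pass.

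GAS5 (ENSG00000234741) had 237, 231 and 233 CPM in starved cells, 254, 244 and 222 CPM after 1 h and 169, 156 and 182 CPM after 4 h. All 3 libraries at 4 h lay below all libraries at the earlier times. The mean fell to 168.9 ± 13.1 CPM at 4 h, against 233.8 ± 3.16 CPM in starved cells (SD, n = 3 each), and the change passed (log2 −0.47 ± 0.08, adjusted p = 1.81e-05). ZFAS1 (ENSG00000177410), host of the SNORD12 family, had 69.6, 56.1 and 57.5 CPM in starved cells, 76.8, 51.4 and 44.8 CPM after 1 h and 48.8, 34.6 and 36.2 CPM after 4 h. It fell at 4 h against starvation without overlap (log2 −0.61 ± 0.16, adjusted p = 0.00454), while the 1 h libraries were spread widely and overlapped both. SNHG1 (ENSG00000255717), host of SNORD22 and SNORD25 to SNORD31, had 183, 187 and 189.6 CPM in starved cells, 219.8, 216 and 231 CPM after 1 h and 174, 137 and 153 CPM after 4 h. Its 4 h libraries lay below the others (log2 −0.27 ± 0.11, adjusted p = 0.0414).

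Among the box H/ACA hosts, EPB41L4A-AS1 (ENSG00000224032), which carries SNORA13, had 59.9, 59.4 and 58.6 CPM in starved cells, 66.2, 50.1 and 42.4 CPM after 1 h and 45.1, 31.3 and 32.6 CPM after 4 h. The 4 h libraries lay below the starved ones, and 1 of them overlapped the 1 h range (log2 −0.70 ± 0.14, adjusted p = 0.000155). SNHG15 (ENSG00000232956), host of SNORA9, had 83.9, 85.1 and 88.3 CPM in starved cells, 93.9, 107 and 100.2 CPM after 1 h and 62.2, 60.6 and 66.1 CPM after 4 h. Its 3 groups did not overlap, with the highest values at 1 h and the lowest at 4 h (log2 −0.45 ± 0.10, adjusted p = 0.000315). DANCR (ENSG00000226950), host of SNORA26, had 124, 128 and 121 CPM in starved cells, 119.9, 119 and 114 CPM after 1 h and 106, 103 and 102 CPM after 4 h, a small fall without overlap against starvation (log2 −0.26 ± 0.08, adjusted p = 0.00846).

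Among the hosts that rose, SNHG11, SNHG12 and SNHG20 had the smallest p. SNHG11 (ENSG00000174365), host of SNORA60 and SNORA71E, had 3.11, 3.51 and 1.47 CPM in starved cells, 3.86, 5.42 and 3.84 CPM after 1 h and 7.44, 6.82 and 11.7 CPM after 4 h. It was 3.19-fold higher at 4 h than in starved cells, with no overlap (log2 1.67 ± 0.26, adjusted p = 4.16e-06). SNHG20 (ENSG00000234912), host of SCARNA16, had 11.3, 10.9 and 12.1 CPM in starved cells, 8.63, 15.2 and 11.2 CPM after 1 h and 19.5, 20.4 and 21.2 CPM after 4 h, and its 4 h libraries lay above all others (log2 0.83 ± 0.17, adjusted p = 0.000169). SNHG12 was higher at 4 h than in starved cells in every library (log2 1.39 ± 0.18, adjusted p = 1.3e-06).

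In 17 of the 25 hosts the 4 h and starved libraries did not overlap, against 48.7% of all genes, and SNHG32 was the 1 called host with overlap. Leaving out 1 library ended 4 of the 18 calls. They were SNHG1 (log2 −0.30 to −0.19) and SNHG7 (−0.54 to −0.33) without any starved library or without 4 h library 2 or 3. The others were SNHG10 (−0.42 to −0.32) without any starved library or without 4 h library 1 or 2, and SNHG32 (0.26 to 0.41) without any starved library or without 4 h library 1 or 3. SNHG3, SNHG4, SNHG20, SNHG21 and SNHG32 had counts that were not whole in at least 8 libraries, that is, reads shared with another gene, and their values are less certain.

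Set against 1 h of feeding, 4 h of feeding had 9 hosts lower and 4 higher, where 39.5% of all genes were called (17.9% lower, 21.5% higher). The median was −0.24 for the hosts and −0.00 for all genes (log2). SNHG15 (log2 −0.67 ± 0.10, adjusted p = 1.04e-06), GAS5 (log2 −0.51 ± 0.08, adjusted p = 6.23e-06) and SNHG1 (log2 −0.52 ± 0.11, adjusted p = 0.000222) had the smallest p among those that fell, and in each the libraries of the 2 times did not overlap. SNHG20 (log2 0.80 ± 0.17, adjusted p = 0.00029), SNHG11 (log2 0.98 ± 0.24, adjusted p = 0.00164) and SNHG32 (log2 0.43 ± 0.15, adjusted p = 0.0231) rose. The call of SNHG32 came with overlap, as did those of ZFAS1, EPB41L4A-AS1 and SNHG8. SNHG12 did not pass between 1 h and 4 h (log2 0.23 ± 0.17, adjusted p = 0.304). Between the 2 times, 10 of the 25 hosts had no overlap (43.6% of all genes). Calls were lost for SNHG30 (log2 −0.51 to −0.35) without 1 h library 1 or 2 or any 4 h library, and for SNHG26 (0.71 to 0.92) without 1 h library 1 or 4 h library 1 or 3. They were also lost for SNHG32 (0.27 to 0.41) without 1 h library 2 or 3 or 4 h library 1 or 3, and ZFAS1 (−0.46 to −0.29) without 1 h library 1 or 4 h library 2 or 3. Without 4 h library 1, or without 4 h library 3, 2 hosts were called higher.

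Torin1 changed the hosts in both directions in every feeding state. In starved cells 10 of the 25 hosts were higher with Torin1 and 7 lower, against 62.9% of all genes called (33.5% higher, 29.4% lower). In 1 h fed cells 10 were higher and 8 lower, against 62.6% (33% and 29.7%), and in 4 h fed cells 11 were higher and 5 lower, against 55.5% (27.2% and 28.4%). As shares, 40% of hosts were higher and 28% lower in starved cells and 40% and 32% in 1 h fed cells. Both pairs were near those of all genes. In 4 h fed cells the host shares were 44% and 20%. The medians of the hosts were 0.09, 0.12 and 0.29 in the order starved, 1 h and 4 h, and those of all genes 0.09, 0.06 and 0.03 (log2). SNHG4, SNHG7, SNHG11, SNHG19, SNHG29 and SNHG32 were higher with Torin1 in all 3 states, and DANCR, SNHG9, SNHG15 and SNHG17 were lower in all 3. The share of all genes called the same way in all 3 states was not counted. Whether such hosts are more frequent than other genes is thus unknown here. By class, with Torin1 5 of 11 box C/D hosts were higher and 2 lower in starved cells, 5 and 2 in 1 h fed cells and 6 and 0 in 4 h fed cells. Of the 11 box H/ACA hosts, 4 were higher and 4 lower in starved cells, 4 and 5 in 1 h fed cells and 5 and 5 in 4 h fed cells. The difference between the classes was not tested.

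SNHG32 (ENSG00000204387), host of SNORD48 and SNORD52, was among the strongest. It had 106, 103 and 124 CPM in starved, 113, 131 and 125 CPM in 1 h fed and 123, 123 and 124 CPM in 4 h fed cells with Torin1. In the same states without Torin1 it had 37.8, 34.5 and 34.6 CPM, 42.7, 33.6 and 27.0 CPM and 54.2, 34.2 and 50.7 CPM. All 9 libraries with Torin1 lay above all 9 without it, 3.11-fold in starved (log2 1.64 ± 0.14, adjusted p = 1.45e-09), 3.58-fold in 1 h fed (log2 1.84 ± 0.14, adjusted p = 2.4e-10) and 2.66-fold in 4 h fed cells (log2 1.41 ± 0.14, adjusted p = 2.01e-08).

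SNHG29 (ENSG00000175061), host of SNORD49A, SNORD49B and SNORD65, had 454, 471 and 526 CPM in starved, 453, 524 and 479.8 CPM in 1 h fed and 485, 484 and 487 CPM in 4 h fed cells with Torin1. Without Torin1 it had 377, 378 and 341 CPM, 371, 318 and 288 CPM and 320.4, 262 and 258 CPM. It rose in all 3 states without overlap, in starved (log2 0.40 ± 0.09, adjusted p = 0.000229), 1 h fed (log2 0.58 ± 0.09, adjusted p = 1.62e-06) and 4 h fed cells (log2 0.79 ± 0.09, adjusted p = 9.64e-09). SNHG11 had 12.2, 11.8 and 13.1 CPM in starved, 9.32, 12.1 and 11.4 CPM in 1 h fed and 11.1, 11.6 and 15.8 CPM in 4 h fed cells with Torin1. Against the levels without Torin1 given above it was 4.55-fold higher in starved cells (log2 2.18 ± 0.25, adjusted p = 7.78e-09), higher in 1 h fed cells (log2 1.32 ± 0.24, adjusted p = 1.67e-05) and, with overlap, higher in 4 h fed cells (log2 0.57 ± 0.22, adjusted p = 0.0289).

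SNHG4 (ENSG00000281398), host of SNORA74A and SNORA74D, had 52.7, 63.0 and 58.9 CPM in starved, 51.4, 53.4 and 50.3 CPM in 1 h fed and 49.4, 42.9 and 49.8 CPM in 4 h fed cells with Torin1. In the same states without Torin1 it had 31.4, 32.6 and 35.3 CPM, 30.9, 36.5 and 34.6 CPM and 35.0, 29.4 and 43.4 CPM. The groups did not overlap in starved (log2 0.81 ± 0.11, adjusted p = 3.29e-07) and 1 h fed cells (log2 0.60 ± 0.11, adjusted p = 3.41e-05) and overlapped in 4 h fed cells (log2 0.40 ± 0.11, adjusted p = 0.00394). SNHG4 overlaps MATR3 on the same strand and had shared reads, so its level is uncertain. EPB41L4A-AS1 had 71.3, 71.8 and 75.0 CPM in starved, 79.8, 77.3 and 80.9 CPM in 1 h fed and 79.6, 88.9 and 67.6 CPM in 4 h fed cells with Torin1, above every library of the same state without Torin1. It did not pass in starved cells (log2 0.29 ± 0.13, adjusted p = 0.0531) and rose in 1 h fed (log2 0.59 ± 0.13, adjusted p = 0.000385) and 4 h fed cells (log2 1.11 ± 0.13, adjusted p = 1.29e-07).

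For GAS5 and ZFAS1 the Torin1 comparison passed in 4 h fed cells and in neither of the other states. GAS5 had 224, 252 and 269 CPM in starved, 247, 262 and 272 CPM in 1 h fed and 249.5, 264 and 236 CPM in 4 h fed cells with Torin1. The 4 h libraries with Torin1 lay above the 4 h libraries without it (log2 0.56 ± 0.08, adjusted p = 5.61e-07), whereas the groups overlapped in starved (log2 0.09 ± 0.08, adjusted p = 0.357) and 1 h fed cells (log2 0.12 ± 0.08, adjusted p = 0.202). ZFAS1 had 53.7, 55.6 and 62.1 CPM in starved, 54.2, 65.4 and 58.9 CPM in 1 h fed and 56.7, 55.6 and 51.0 CPM in 4 h fed cells with Torin1, with no overlap at 4 h (log2 0.45 ± 0.16, adjusted p = 0.0236).

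The 4 hosts that were lower with Torin1 in all 3 states are of the box H/ACA class. SNHG4, SNHG7 and SNHG11, of the same class, were higher in all 3. SNHG15 had 35.0, 32.8 and 34.9 CPM in starved, 32.2, 35.5 and 43.2 CPM in 1 h fed and 34.0, 37.7 and 33.3 CPM in 4 h fed cells with Torin1. All 9 libraries lay below all 9 without Torin1, 2.5-fold in starved (log2 −1.32 ± 0.10, adjusted p = 7.21e-13), 2.71-fold in 1 h fed (log2 −1.44 ± 0.10, adjusted p = 1.11e-13) and 1.80-fold in 4 h fed cells (log2 −0.85 ± 0.10, adjusted p = 1.49e-08). SNHG17 (ENSG00000196756), host of SNORA71A to SNORA71D, had 30.3, 43.1 and 37.6 CPM in starved, 27.9, 39.3 and 36.9 CPM in 1 h fed and 23.9, 31.7 and 30.5 CPM in 4 h fed cells with Torin1. Without Torin1 it had 54.2, 62.8 and 65.5 CPM, 71.3, 96.7 and 83.0 CPM and 64.2, 53.5 and 80.3 CPM. It fell without overlap in starved (log2 −0.72 ± 0.17, adjusted p = 0.000934), 1 h fed (log2 −1.27 ± 0.17, adjusted p = 1.78e-06) and 4 h fed cells (log2 −1.20 ± 0.17, adjusted p = 5.88e-06).

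DANCR had 72.1, 72.6 and 81.2 CPM in starved, 73.2, 86.2 and 84.2 CPM in 1 h fed and 69.0, 71.9 and 70.1 CPM in 4 h fed cells with Torin1, and all 9 values lay below all 9 without Torin1. Its log2 fold changes were −0.72 ± 0.08 in starved (edgeR adjusted p = 3.48e-09), −0.53 ± 0.08 in 1 h fed (edgeR adjusted p = 1.01e-06) and −0.56 ± 0.08 in 4 h fed cells (edgeR adjusted p = 7.05e-07). SNHG9, host of SNORA78 and a low gene at 5 to 67 counts a library that is named after its values were seen, had the largest fold among the hosts: its mean was 1.00 ± 0.184 CPM in starved, 0.651 ± 0.261 CPM in 1 h fed and 0.714 ± 0.251 CPM in 4 h fed cells with Torin1, against 4.77 ± 1.22, 5.32 ± 0.739 and 2.19 ± 0.869 CPM without it (SD, n = 3 each). The fall was 4.75-fold, 7.94-fold and 3.05-fold in the same order of states, with edgeR adjusted p of 3.78e-06, 7.13e-08 and 0.00106.

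SNHG12 moved in opposite directions. Its levels with Torin1 were 22.9, 33.9 and 24.4 CPM in starved, 25.9, 29.2 and 27.2 CPM in 1 h fed and 23.9, 23.4 and 24.4 CPM in 4 h fed cells, so that with Torin1 the starved libraries lay above, and the 4 h fed libraries below, all libraries of the same state without Torin1. It rose with Torin1 in starved cells (log2 0.82 ± 0.18, adjusted p = 0.000453), fell with it in 4 h fed cells (log2 −0.75 ± 0.17, adjusted p = 0.000824) and did not pass in 1 h fed cells (log2 −0.32 ± 0.17, adjusted p = 0.115). SNHG21 passed in no state, with log2 fold changes of 0.39 ± 0.30, 0.56 ± 0.32 and 0.72 ± 0.32 in starved, 1 h and 4 h fed cells.

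**Figure D2:**
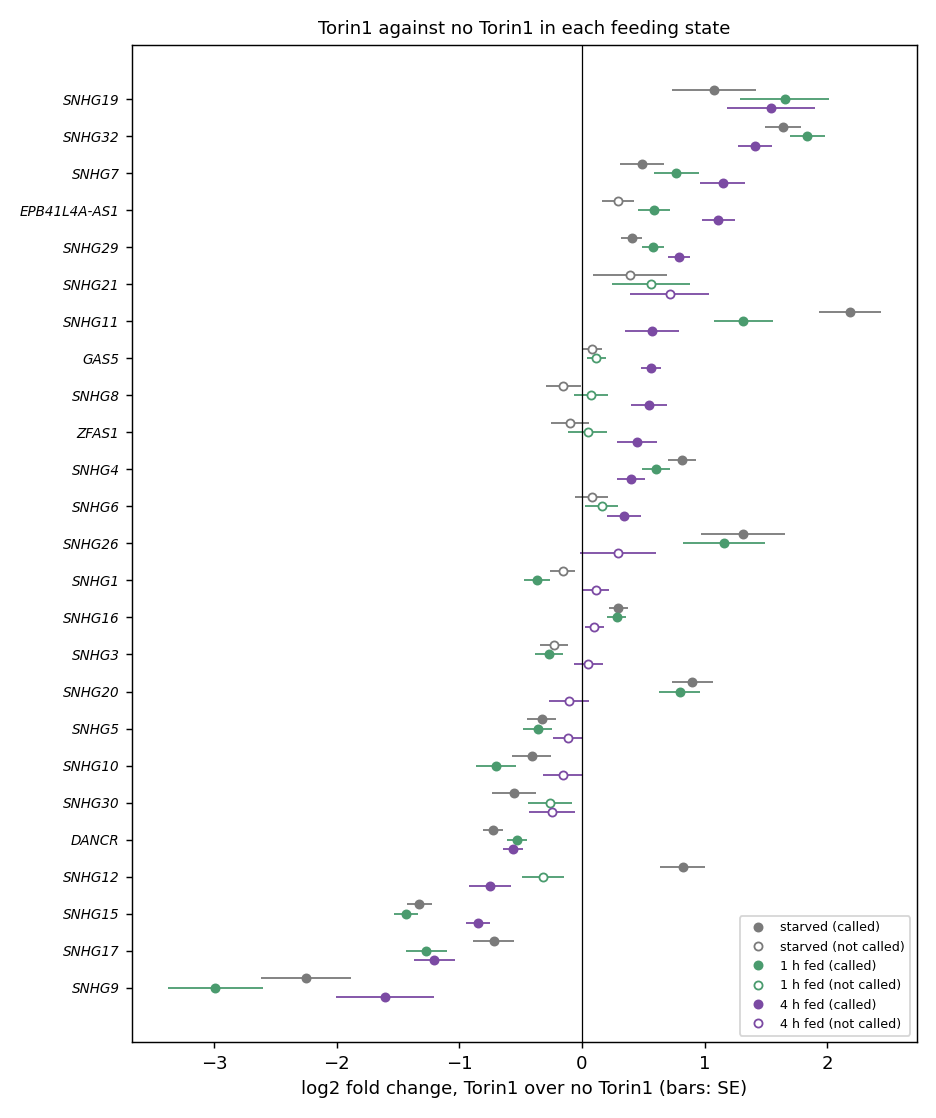
Log2 fold change of the 25 tested hosts, Torin1 over no Torin1, in starved (grey), 1 h fed (green) and 4 h fed cells (purple), ordered by the value in 4 h fed cells. Bars are the SE and filled points passed the threshold. SNHG32 lies between 1.41 and 1.84 and SNHG15 between −1.44 and −0.85 in the 3 states, and SNHG12 lies at 0.82 in starved and −0.75 in 4 h fed cells.

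In starved cells 20 hosts had no overlap between the groups with and without Torin1 (68% of all genes), in 1 h fed cells 16 (66.8%) and in 4 h fed cells 15 (60.2%). Scaling by library totals in place of trimmed means shifted the all-gene median by 0.14, 0.11 and 0.16 in starved, 1 h and 4 h fed cells (log2), and in starved cells it gave 12 hosts higher and 5 lower, beside the 10 and 7 above. No called host changed sign under either scaling tried. In starved cells the calls lost when 1 library was left out were SNHG7 (log2 0.40 to 0.48, without starved library 1 or 3 or starved Torin1 library 3) and SNHG5 (−0.31 to −0.25, without starved library 1 or starved Torin1 library 2). Others were SNHG10 (−0.41 to −0.33, without starved library 1 or starved Torin1 library 1 or 3), SNHG19 (0.73, without starved Torin1 library 2) and SNHG30 (−0.42, without starved Torin1 library 3). In 1 h fed cells they were SNHG3 (−0.28 to −0.12, without 1 h library 3 or 1 h Torin1 library 1 or 3) and SNHG5 (−0.20, without 1 h library 1). In 4 h fed cells they were ZFAS1 (0.36 to 0.43) and SNHG6 (0.22 to 0.34), each without 4 h library 2 or 3 or 4 h Torin1 library 1 or 2. So were SNHG11 (0.39 to 0.47, without 4 h library 1 or 2 or 4 h Torin1 library 3) and SNHG4 (0.27, without 4 h library 2). The number of hosts higher with Torin1 in 4 h fed cells was 7 without 4 h library 2, and the hosts' median was then 0.18, and it was 0.13 without 4 h Torin1 library 3.

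Feeding in the presence of Torin1 left the hosts without a call. In 1 h fed against starved cells, both with Torin1, edgeR called 0 of 25 hosts (0.398% of all genes, 0.272% higher and 0.127% lower), with 1 host at an unadjusted p under 0.05 and 0 called by DESeq2. In 4 h fed against starved cells with Torin1, edgeR called 0 of 25 hosts (1.77% of all genes, 0.827% higher and 0.941% lower), with 2 hosts at an unadjusted p under 0.05 and 0 called by DESeq2. The log2 fold changes at 4 h lay between −0.48 and 0.19 with Torin1 and between −1.12 and 1.67 without it.

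The difference between the feeding effect with Torin1 and that without it was tested as an interaction. At 4 h it passed in 8 of the 25 hosts, 5 higher and 3 lower, against 25.5% of all genes (9.7% higher, 15.8% lower), and the median was 0.27 for the hosts and −0.02 for all genes (log2). The difference was positive for GAS5 (log2 0.48 ± 0.11, adjusted p = 0.00174), EPB41L4A-AS1 (log2 0.82 ± 0.19, adjusted p = 0.00174), SNHG8 (log2 0.70 ± 0.20, adjusted p = 0.0105), SNHG15 (log2 0.48 ± 0.14, adjusted p = 0.0101) and SNHG29 (log2 0.39 ± 0.13, adjusted p = 0.0219), which all fell with feeding in the cells without Torin1. It was negative for SNHG12 (log2 −1.57 ± 0.25, adjusted p = 5.07e-05), SNHG11 (log2 −1.62 ± 0.34, adjusted p = 0.000479) and SNHG20 (log2 −1.0 ± 0.23, adjusted p = 0.00143), which all rose with feeding in the cells without Torin1. SNHG29 lost the call without starved library 2, 4 h library 2 or 3 or starved Torin1 library 1, with values of 0.33 to 0.36. SNHG8, host of SNORA24, was picked after its values were seen. With Torin1 it had 26.1, 28.8 and 32.0 CPM in starved and 27.0, 29.5 and 33.2 CPM in 4 h fed cells. Without Torin1 it had 32.2, 31.6 and 32.6 CPM in starved and 25.2, 19.0 and 16.9 CPM in 4 h fed cells. The 2 times overlapped with Torin1 and did not overlap without it. The interaction uses the same libraries as the single comparisons and is not independent of them.

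At 1 h the interaction passed in 0 of 25 hosts in edgeR (0.0664% of all genes, 0.0121% higher and 0.0543% lower), with 3 hosts at an unadjusted p under 0.05 and 1 called by DESeq2. SNHG12 had the largest difference at 1 h, with a fold change of 1.16 ± 0.18 for feeding without Torin1 and 0.02 ± 0.17 for feeding with it (log2 ± SE), and the difference did not pass (log2 −1.14 ± 0.25, adjusted p = 0.112).

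**Figure D3:**
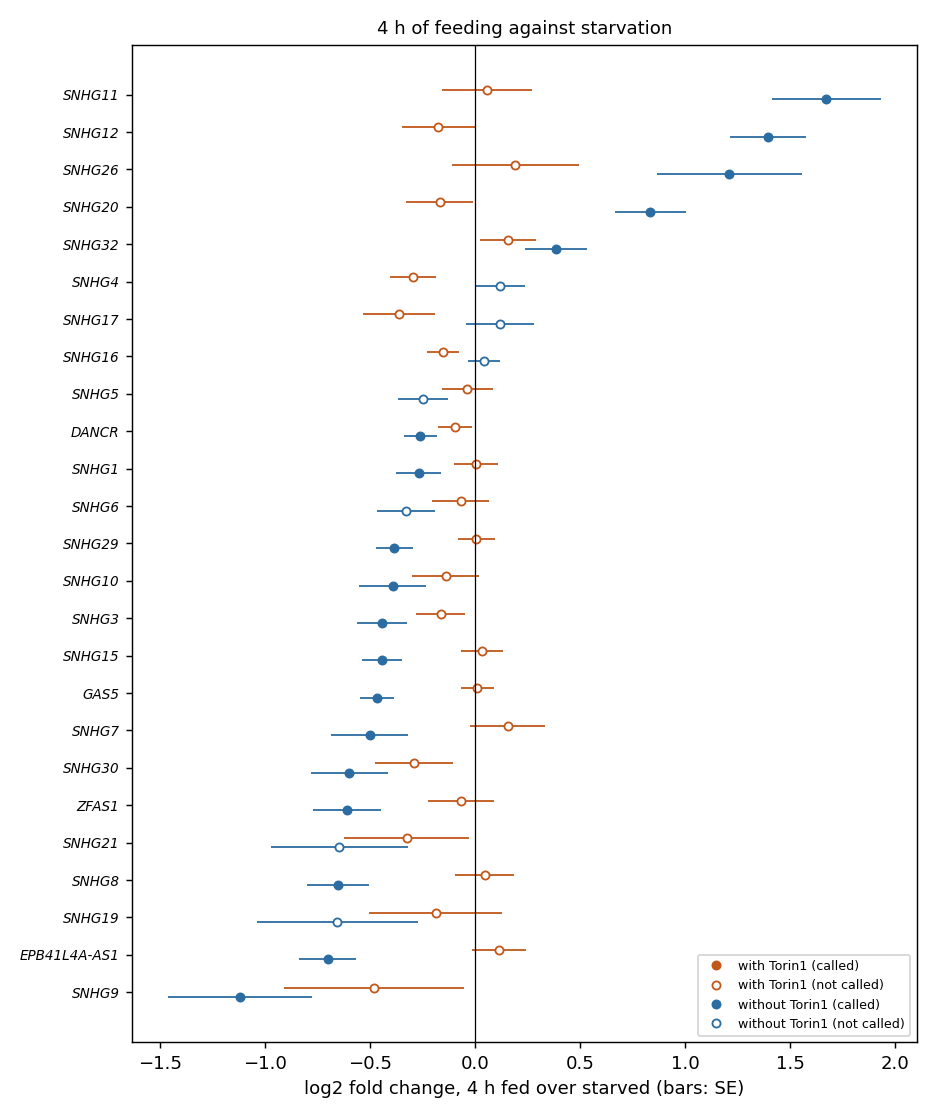
Log2 fold change of the 25 tested hosts, 4 h fed over starved cells, with Torin1 (orange) and without Torin1 (blue), ordered by the value without Torin1. Bars are the SE and filled points passed the threshold. The points with Torin1 lie between −0.48 and 0.19 with none filled, and those without it lie between −1.12 and 1.67 with 18 filled.

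The hosts were also split by the pyrimidine run at an annotated start. In 4 h fed cells, 8 of the 12 hosts with such a start were higher with Torin1 and 1 lower, with a median of 0.42 (log2), and 3 of the 13 without it were higher and 4 lower, with a median of −0.11. Over all tested genes the medians were 0.08 with such a start (34% higher, 26.5% lower) and 0.01 without it (26.1% higher, 28.9% lower). In starved cells, 6 of the 12 were higher with Torin1 and 1 lower, with a median of 0.19, and 4 of the 13 were higher and 6 lower, with a median of −0.23. In 1 h fed cells the counts of higher hosts were alike, with 5 of the 12 higher and 2 lower (median 0.14) and 5 of the 13 higher and 6 lower (median −0.26). For 4 h of feeding without Torin1 the medians were −0.30 with and −0.44 without such a start. These are descriptions of groups formed after earlier results were known, and were not tested. SNHG12, with the longest run printed above, was the 1 host of the 12 that was lower with Torin1 in 4 h fed cells. SNHG32, with no such start at an annotated first base, was among those higher. Its printed sequence does hold a pyrimidine run further in, so its place in the split depends on the annotated start.

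At the level of single transcripts, 145 of the 294 annotated isoforms of the 32 genes were tested among 56806 isoforms. With Torin1, 13 were higher and 8 lower in starved cells (18.7% of all isoforms called, 9.88% higher and 8.82% lower). In 1 h fed cells 16 were higher and 11 lower (18.8%, 10.2% and 8.57%), and in 4 h fed cells 18 were higher and 6 lower (13.4%, 7.03% and 6.41%). For 4 h of feeding without Torin1, 3 were higher and 5 lower against starvation (7.54%, 4.15% and 3.39%), and 2 higher and 4 lower against 1 h (6.68%, 3.9% and 2.78%). For 1 h of feeding edgeR called 0 (0.0458%, 0.0352% and 0.0106%), with 10 isoforms at an unadjusted p under 0.05. For feeding under Torin1 it called 0 at 1 h (0.0246%, 0.0158% and 0.0088%) and 0 at 4 h (0.0845%, 0.0458% and 0.0387%), with 5 isoforms at an unadjusted p under 0.05 each time. The 4 h interaction passed for 1, lower (2.66%, 1.01% and 1.65%), and the 1 h interaction for 0 (0.0158%, 0.00352% and 0.0123%, 10 isoforms at an unadjusted p under 0.05). DESeq2 was not run on isoforms.

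Isoforms of 1 host could move in opposite directions, and those named next were chosen after their values were seen. In GAS5, the isoform ENST00000422207, annotated as a retained intron, had 62, 64 and 70 counts in starved, 58, 69 and 59 in 1 h fed and 88, 58 and 49 in 4 h fed cells with Torin1. In the same states without Torin1 it had 152, 168 and 149, 127, 174 and 171 and 161, 99 and 186 counts. All 9 libraries with Torin1 lay below all 9 without it, and it fell with Torin1 in all 3 states (log2 −1.35 ± 0.26, adjusted p = 0.00142 in starved cells). The GAS5 isoform ENST00000448718, annotated as a lincRNA, had 926, 891 and 850 counts in starved, 898, 938 and 1039 in 1 h fed and 1113, 1090 and 875 in 4 h fed cells with Torin1. Without Torin1 it had 571, 541 and 447, 671, 535 and 363 and 427, 299 and 359 counts. It rose in all 3 states (log2 1.35 ± 0.20, adjusted p = 0.000238 in 4 h fed cells). The main DANCR isoform, ENST00000411630, had 620, 446 and 488 counts in starved, 453, 493 and 642 in 1 h fed and 406, 402 and 437 in 4 h fed cells with Torin1. In the same states without Torin1 it had 811, 1182 and 996, 735, 980 and 1045 and 864, 643 and 687 counts. It fell with Torin1 in all 3 states (log2 −1.05 ± 0.12, adjusted p = 1.61e-05 in starved cells), whereas another, DANCR-202, passed in none, with log2 fold changes of 0.10, 0.23 and 0.31. In SNHG1, isoform SNHG1-223 fell with Torin1 in all 3 states (log2 −1.38 ± 0.19, adjusted p = 0.000155 in 4 h fed cells) while SNHG1-211 rose in 1 h fed and 4 h fed cells (log2 1.27 ± 0.18, adjusted p = 0.000227 in 4 h fed cells).

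A change of an isoform's share of its gene was tested for 76 isoforms of 11 hosts with diffSpliceDGE in edgeR. With Torin1, 1 isoform passed in 1 h fed cells (1.6% of all isoforms): ENST00000375642 of SNHG32, with 56, 61 and 66 counts in 1 h fed cells with Torin1, against 0, 0 and 0 counts in 1 h fed cells without it (edgeR adjusted p = 0.00697). The starved and 4 h fed cells without Torin1 had up to 42 counts. The call was lost without 1 h library 1. In starved cells 0 isoforms passed (1.63% of all isoforms), in 4 h fed cells 0 (1.11%) and for 4 h of feeding without Torin1 0 (0.391%), and DESeq2 was not run on isoform shares. The next by p were SNHG12-203 in 1 h fed cells (edgeR adjusted p = 0.0910) and the GAS5 retained-intron isoform above in 4 h fed cells (edgeR adjusted p = 0.0955), and both did not pass.

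The share of a host's isoform counts on all its isoforms annotated as retained introns was then described in the 9 libraries with and the 9 without Torin1. Each set of 9 pools the feeding states, so its SD includes differences between states. The 5 hosts are those tested that have such an isoform and at least 90% of their gene count on annotated isoforms. This measure was chosen after isoform values had been seen, so no test is given. For GAS5 the share was 16.7 ± 2.5% with Torin1 and 32.3 ± 6.09% without it (SD, n = 9 each), from 13.1 to 20.8% against 23.1 to 41.0%, with no overlap. DANCR had 49.8 ± 5.81% with Torin1 and 30.9 ± 8.72% without it, from 39.9 to 57.7% against 17.4 to 43.5%, with overlap of the pooled ranges. Within each feeding state, all DANCR shares with Torin1 lay above those without it. A share also rises when the other isoforms of a host fall. The main DANCR isoform, given above, fell with Torin1 in every feeding state, so the higher DANCR share need not mean more retained-intron RNA. DANCR-202, whose counts made up most of that share, passed in no feeding state, as given above. In SNHG3 the share was 13.2 ± 4.11% with Torin1 and 22.7 ± 5.49% without it, and in SNHG6 it was 1.5 ± 0.669% with Torin1 and 3.38 ± 1.77% without it, both with overlap of the pooled ranges. SNHG12 had 80.1 ± 4.03% with Torin1 and 79.4 ± 5.54% without it. With 1 library left out, the difference stayed between −17.3 and −14.4 percentage points for GAS5 and between 16.8 and 21.1 for DANCR. RSEM divides reads between isoforms that share exons, so these shares are estimates.

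**Figure D4:**
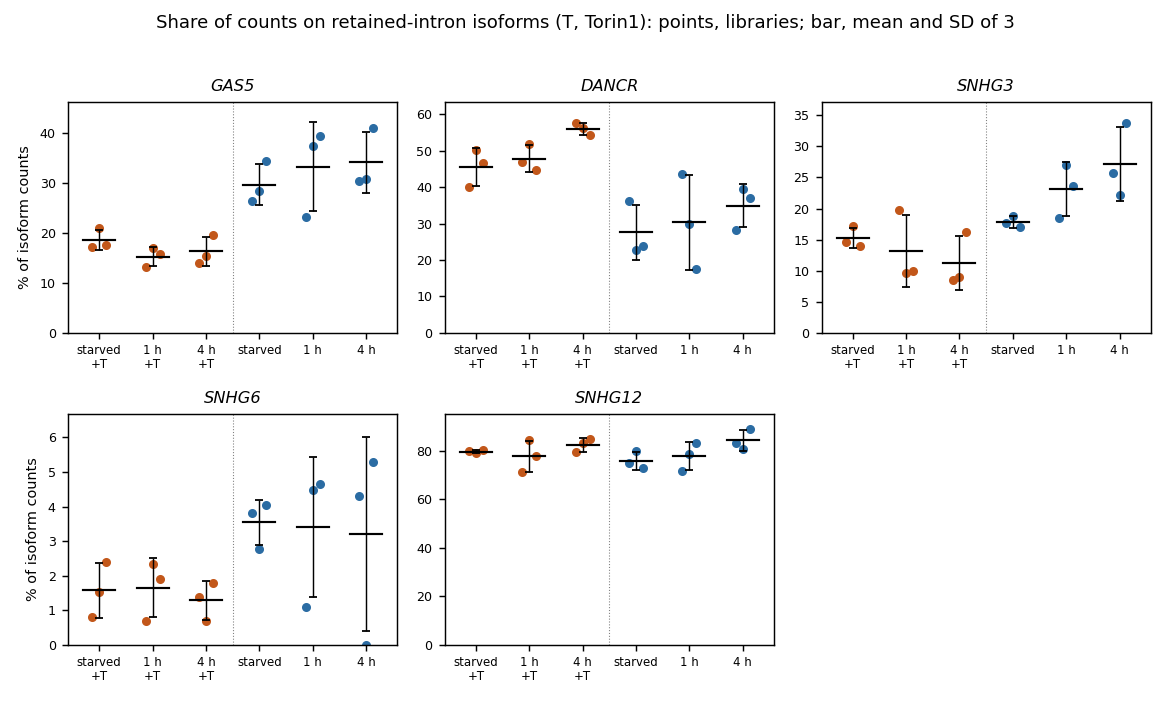
Share of isoform counts on isoforms annotated as retained introns, in percent of the host's isoform counts (vertical axis, from 0), in each library of the 3 groups with Torin1 (orange) and the 3 groups without it (blue). Points are libraries, and bars are the mean and SD of 3. GAS5 lies at 13.1 to 20.8% with Torin1 and 23.1 to 41.0% without it, DANCR at 39.9 to 57.7% and 17.4 to 43.5%.

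Most hosts lie beside or across from another gene, and strand use in counting is not stated, so reads of overlapping genes on opposite strands may have been mixed. The 5 hosts with counts that were not whole in at least 8 libraries each overlap a gene on their own strand. Whether reads from opposite strands were mixed was not tested. SLC3A2, an amino acid transporter subunit that starts on the other strand within 1000 bases of SNHG1, was lower with Torin1 in starved cells, at 115.5 ± 10.3 CPM against 388 ± 63.8 CPM without it (SD, n = 3 each; log2 −1.75 ± 0.13, adjusted p = 2.63e-10), where SNHG1 did not pass (log2 −0.16 ± 0.11, adjusted p = 0.194). ZBTB37, which overlaps GAS5 on the opposite strand, fell with 4 h of feeding to 18.5 ± 1.65 CPM, against 44.1 ± 3.18 CPM in starved cells (log2 −1.25 ± 0.15, adjusted p = 3.69e-08), as GAS5 did, and fell with Torin1 in starved cells (log2 −1.10 ± 0.15, adjusted p = 9.22e-08), where GAS5 did not pass. ZNFX1, opposite ZFAS1, fell with 4 h of feeding (log2 −0.65 ± 0.14, adjusted p = 0.000254), and so did ZFAS1. For SNHG12 the opposite gene TRNAU1AP did not pass with 4 h of feeding (log2 −0.19 ± 0.11, adjusted p = 0.141) and fell with Torin1 in starved cells (log2 −0.38 ± 0.11, adjusted p = 0.00216), where SNHG12 rose. SNHG9 has 2 genes whose starts face its own. RPS2 had 6159 ± 754 CPM with Torin1 and 6403 ± 427 CPM without it in starved cells and did not pass (log2 −0.06 ± 0.08, adjusted p = 0.581). RPS2 rose with Torin1 in 4 h fed cells (log2 0.26 ± 0.08, adjusted p = 0.0104), where SNHG9 fell, and fell with 4 h of feeding without Torin1 (log2 −0.28 ± 0.08, adjusted p = 0.00759), as SNHG9 did. The other, ENSG00000255513, is a low gene that fell with Torin1 in 4 h fed cells, to 0.246 ± 0.0899 CPM with Torin1, against 2.55 ± 0.943 CPM without it (edgeR adjusted p = 0.000386). It also fell in 1 h fed cells (edgeR adjusted p = 0.0163) and did not pass in starved cells (edgeR adjusted p = 0.14).

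**Figure D5:**
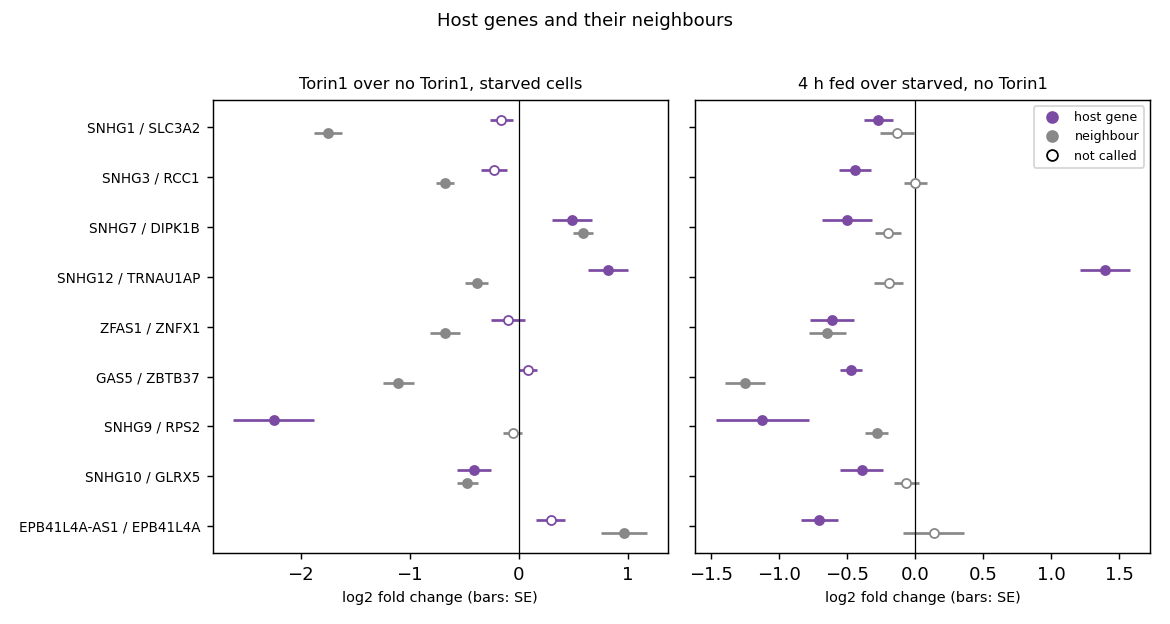
Log2 fold change of 9 hosts (purple) and a neighbour of each (grey), for Torin1 over no Torin1 in starved cells (left) and 4 h fed over starved cells without Torin1 (right). Bars are the SE and open points did not pass. SNHG1 and SLC3A2 lie at −0.16 and −1.75 on the left, and ZFAS1 and ZNFX1 at −0.61 and −0.65 on the right.

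Gene lists around the hosts are given as counts of called genes, and the shares of all genes called higher and lower stand beside each count. The 24 ribosomal protein genes that also host snoRNAs, which have TOP starts, had 16 higher and 0 lower with Torin1 in 4 h fed cells (median log2 0.26; 27.2% and 28.4% of all genes). They had 12 higher and 0 lower in 1 h fed cells (0.19; 33% and 29.7%) and 7 higher and 1 lower in starved cells (0.10; 33.5% and 29.4%). With 4 h of feeding without Torin1, 0 were higher and 10 lower (−0.21; 22.9% and 19%). RPL3 rose with Torin1 in 4 h fed cells (log2 0.76 ± 0.08, adjusted p = 2.96e-09), as did RPL10 (log2 0.72 ± 0.07, adjusted p = 1.27e-09) and RPL13A (log2 0.55 ± 0.07, adjusted p = 1.67e-07), all parts of the large ribosomal subunit. The median of the 25 hosts in that comparison was 0.29, but with 11 higher and 5 lower and values from −1.61 to 1.54 (log2).

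Of 22 other protein-coding snoRNA hosts, 3 were higher and 16 lower with Torin1 in 4 h fed cells (median −0.50; 27.2% and 28.4% of all genes). In 1 h fed cells 4 were higher and 14 lower (−0.33; 33% and 29.7%), and in starved cells 4 were higher and 15 lower (−0.34; 33.5% and 29.4%). The translation elongation factor EEF2 (log2 0.46 ± 0.08, adjusted p = 6.02e-06) and RACK1, a protein of the small ribosomal subunit (log2 0.21 ± 0.08, adjusted p = 0.0197), rose, while the nucleolar proteins NCL (log2 −0.81 ± 0.07, adjusted p = 5e-11) and WDR43 (log2 −1.32 ± 0.09, adjusted p = 1.54e-13) fell. With 4 h of feeding without Torin1, 8 were higher and 5 lower (0.04; 22.9% and 19%).

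Most genes whose proteins bind or assemble snoRNAs fell with Torin1. Of 19 such genes, 0 were higher and 16 lower in 4 h fed cells (median −0.78; 27.2% and 28.4% of all genes), 2 higher and 13 lower in 1 h fed cells (−0.61; 33% and 29.7%) and 2 higher and 14 lower in starved cells (−0.71; 33.5% and 29.4%). NOLC1, which binds both snoRNA classes, had 343 ± 19.7 CPM with Torin1 and 777 ± 22.9 CPM without it in 4 h fed cells (SD, n = 3 each; log2 −1.18 ± 0.07, adjusted p = 6.37e-14). DKC1, the pseudouridine synthase, fell in the same comparison (log2 −0.87 ± 0.07, adjusted p = 1.28e-11), as did its partner NHP2 (log2 −1.09 ± 0.09, adjusted p = 2e-11). With 4 h of feeding without Torin1, 3 were higher and 1 lower (−0.01; 22.9% and 19% of all genes). The assembly factors ZNHIT6 (log2 1.46 ± 0.09, adjusted p = 2.57e-14) and RPAP3 (log2 1.13 ± 0.12, adjusted p = 2.01e-09) and the box C/D core protein NOP56 (log2 0.65 ± 0.09, adjusted p = 9.44e-07) rose.

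Of 16 NMD factors, 1 was higher and 13 lower with Torin1 in 4 h fed cells (median −0.67; 27.2% and 28.4% of all genes), 2 higher and 11 lower in 1 h fed cells (−0.77; 33% and 29.7%) and 2 higher and 11 lower in starved cells (−0.73; 33.5% and 29.4%). UPF2, a core NMD factor, had 43.8 ± 2.73 CPM with Torin1 and 144.7 ± 5.68 CPM without it in starved cells (SD, n = 3 each; log2 −1.72 ± 0.10, adjusted p = 1.69e-15), and SMG5 fell in 4 h fed cells (log2 −1.23 ± 0.09, adjusted p = 9.84e-13). With 4 h of feeding without Torin1, 5 were higher and 6 lower (−0.10; 22.9% and 19%), among them SMG8 (log2 1.95 ± 0.10, adjusted p = 1.13e-15) and UPF2 (log2 −0.95 ± 0.09, adjusted p = 1.16e-09). Of 17 genes of the RNA exosome and 5′ to 3′ decay, 1 was higher and 9 lower with Torin1 in 4 h fed cells (−0.54; 27.2% and 28.4% of all genes), 3 and 10 in 1 h fed cells (−0.33; 33% and 29.7%) and 2 and 10 in starved cells (−0.52; 33.5% and 29.4%). In 4 h fed cells the exonuclease XRN1 was the higher one (log2 1.03 ± 0.12, adjusted p = 1.04e-08). Of 13 genes that regulate TOP messenger RNAs or bind the cap complex, 2 were higher and 10 lower with Torin1 in 4 h fed cells (−0.63; 27.2% and 28.4% of all genes), 3 and 8 in 1 h fed cells (−0.40; 33% and 29.7%) and 4 and 9 in starved cells (−0.47; 33.5% and 29.4%). In 4 h fed cells the repressor gene EIF4EBP2 was higher (log2 0.68 ± 0.07, adjusted p = 5.09e-09) and EIF4G1, which encodes the scaffold of the cap complex, was lower (log2 −1.06 ± 0.09, adjusted p = 3.34e-11). The medians of all tested genes stand above for each comparison.

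Over the 6 group means, the tested genes most like GAS5 by Pearson's r of log2 CPM were DHTKD1 (0.99), IP6K2 (0.99), POLR1D (0.99), LINC01719 (0.99) and TTC39C (0.99), and those most like SNHG12 were MED25 (0.98), TP53BP1 (0.98), STOX2 (0.97), MT-ND2 (0.96) and AKAP9 (0.96). Among the hosts, SNHG6 (0.95), SNHG8 (0.94), ZFAS1 (0.93) and EPB41L4A-AS1 (0.92) were the most like GAS5, and GAS5 and SNHG12 themselves had r = −0.49. These are descriptions over 6 points that share libraries and scaling.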

How the data were processed

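RNA was measured in 18 libraries of HEK-293E cells in 6 groups of 3. Per the labels' protocols, RNA was prepared with TRIzol and a DNase I step, and STAR was run in its 2-pass mode. The submitters' processing notes add RSEM and DESeq2, and no versions are given. The labels name a worm genome build while the deposited identifiers are human Ensembl identifiers, so the human build and annotation behind the counts are unknown here. The gene table the authors deposited holds expected counts per gene, of which 3.32% were not whole within 0.001, and the deposited isoform table holds estimated counts as whole numbers. Both were taken as not normalised, since library totals differed.

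Counts were rounded, genes with at least 10 counts in at least 3 libraries were kept, and edgeR 4.0.16 in R 4.3.3 was fitted over 6 group means with trimmed-mean scaling and robust quasi-likelihood tests. Residual degrees of freedom were 12, and the common biological coefficient of variation was 10.6%. Benjamini-Hochberg adjustment ran over all genes tested, and an adjusted p under 0.05 was called. CPM are scaled by the trimmed means. Settings also tried were the size factors and the Wald test of DESeq2 1.42.0, library totals, other filters, fewer groups, summed isoform counts, a replicate block and each library left out.

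Values in every library were given for GAS5, SNHG12, ZFAS1, DANCR and EPB41L4A-AS1 and, in each comparison, for up to 3 called hosts in each direction with the smallest p and a mean of at least 5 CPM. From each gene list up to 3 called genes per direction could be named, and genes or isoforms outside these rules are marked as picked later. The members and lists were chosen with earlier results of these data known. No 2 libraries of a group agreed within sampling noise, with a chi-square per degree of freedom of 4.14 to 14.6. No sequence of SNHG6 is shown.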

Additional observations from a re-analysis of the deposited data

Results flagged for a closer look

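In 8 of the 25 hosts (32%) the effect of 4 h of feeding differed between cells with and without Torin1, by the interaction test in edgeR. Of all genes, 25.5% passed this test (9.7% higher, 15.8% lower). The values are the feeding effect with Torin1 minus that without it, on the log2 scale. They were positive for GAS5 (0.4781), EPB41L4A-AS1 (0.8181), SNHG8 (0.7009), SNHG15 (0.4776) and SNHG29 (0.3893). They were negative for SNHG11 (−1.6154), SNHG12 (−1.57) and SNHG20 (−1.0047).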

How the results depend on the processing

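Of 91 calls over all comparisons, 90 were kept and 1 lost with DESeq2 size factors, 91 were kept with DESeq2's Wald test and with filterByExpr, 85 were kept and 6 lost with library totals, 87 were kept and 4 lost with no filter and likewise when only the groups compared were fitted, and 0 changed direction. Summed isoform counts were run per gene for hosts with enough annotated counts and kept 41 of 41 calls, but the counts of called hosts were not run under that setting. With library totals the hosts' median for Torin1 was 0.2255 in starved, 0.2286 in 1 h fed and 0.4571 in 4 h fed cells (log2). With DESeq2 size factors it was 0.0391 in starved, 0.0731 in 1 h fed and 0.2971 in 4 h fed cells, beside 0.0859, 0.1171 and 0.2932 with trimmed means. With no filter, 2 hosts were higher at 1 h of feeding and 1 had a lower 1 h interaction, and DESeq2's Wald test also gave 1 lower. When only the groups compared were fitted, 2 hosts were higher at 4 h against 1 h. The cause of these shifts was not tested.

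Whether replicate numbers shared between groups pair the libraries is not settled. Deviations of same-numbered libraries had a mean correlation of 0.031 (−0.107 to 0.158, over 0.1 in 3 of 45 pairs). Those of differently numbered libraries had a mean of −0.015 (−0.11 to 0.11, over 0.1 in 2 of 90 pairs). Of 18 libraries, 11 correlated best with their own number. With the replicate block, 89 of the 91 calls were kept and 2 lost, 2 hosts were higher at 1 h of feeding, 5 had a lower 4 h interaction, and 0 isoforms passed the 4 h interaction.

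With 1 library left out at a time, 529 of 594 calls were kept. Over these fits the hosts' median ranged from −0.0703 to 0.0654 for 1 h of feeding, 0.0403 to 0.2504 for Torin1 in 1 h fed cells, 0.1313 to 0.3796 for Torin1 in 4 h fed cells and 0.1695 to 0.3385 for the 4 h interaction (log2). Hosts called higher were 2 to 4 at 4 h against 1 h and 7 to 11 for Torin1 in 4 h fed cells, and 0 to 1 had a lower 1 h interaction. Isoforms called were 0 to 1 for 1 h of feeding, 3 to 9 for 4 h of feeding and 0 to 3 for the 4 h interaction, and 0 to 1 for isoform use with Torin1 in 1 h fed cells. Depth limits SNHG9, SNHG19, SNHG21 and SNHG26 most, which had under 10 CPM in every library.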
